A study of Homo sapiens with 15 samples.

Results

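The 40 genes described here encode ribosome biogenesis factors, the proteins that transcribe, modify, cut and fold ribosomal RNA and load it with ribosomal proteins. They were taken by symbol from a list of such factors, with no threshold on counts, and all 40 had a row among the 56475 symbols of the total RNA table and among the 20248 symbols of the footprint table. The list was chosen with earlier results of these data known, so the shares of the factors called below are no independent check. The cells were MCF-10A, a non-tumorigenic human mammary epithelial line. In the tested cells eIF3e, a subunit of the initiation complex eIF3, was depleted with 20 nM eIF3e siRNA for 72 h, and the control cells received control siRNA at the same dose and time. Total RNA and ribosome footprints (the 26 to 34 nt of mRNA that a ribosome shields from RNase I) were each sequenced from 3 libraries per siRNA. A further 3 footprint libraries, with no siRNA named, came from eIF3B-bound ribosomes, eIF3E-bound ribosomes and the whole lysate, with 1 library each. All libraries come from 1 cell line. Nothing in the labels ties the replicates to cultures of their own, and the p-values below therefore rest on a spread between libraries that may be technical.

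Ribosome assembly begins in the nucleolus, where RNA polymerase I makes a long precursor RNA. Small nucleolar ribonucleoproteins (snoRNPs) guide its chemical modification, a large particle called the small subunit processome forms around its 5′ part, and separate sets of factors build the large subunit around its 3′ part. Assembly is among the most costly activities of a growing cell, and the genes of these factors are known to be expressed together with cell growth.

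Counts per library ran from 4263767 to 5646270 in total RNA, from 1889543 to 3447360 in the siRNA footprints and from 1224606 to 1630872 in the single footprint libraries. The target of the siRNA, EIF3E, was at 20.6, 21.4 and 25.9 CPM with eIF3e siRNA, against 198, 219 and 188 CPM with control siRNA in total RNA (CPM, counts scaled to library size with TMM factors, which correct for differences in composition). Markers of breast epithelium were present in every total RNA library, from 29.2 (KRT18) to 4141 CPM (ITGB4) among those reported. Their levels moved with the siRNA: KRT14, KRT7 and ITGB4 fell and CDH3, EPCAM and LAMB3 rose in total RNA, and in footprints KRT5, KRT14, KRT17, KRT7, KRT18 and ITGB4 fell and CDH3 and LAMB3 rose. The size was greatest for KRT14, which fell by 1.00 ± 0.16 in total RNA (log2 fold change ± SE, edgeR adjusted p = 0.00064) and by 0.97 ± 0.11 in footprints (edgeR adjusted p = 1.5e-07). Of the markers of fibroblasts, endothelium and blood, LUM, COL1A2, PDGFRA, PECAM1, VWF, PTPRC, CD3E and LYZ had at most 4 counts over the 6 libraries. The summed level of the 5 fibroblast markers ran from 50.6 to 54.2 CPM with eIF3e siRNA and from 30.3 to 39.5 CPM with control siRNA. Most of it was DCN, the matrix proteoglycan decorin, at 45.6, 43.3 and 45.2 CPM with eIF3e siRNA, against 32.3, 24.8 and 24.1 CPM with control siRNA (log2 fold change 0.73 ± 0.13 SE, edgeR adjusted p = 0.00043). The summed level of the 4 endothelial markers ran from 1.01 to 1.56 CPM with eIF3e siRNA and from 1.83 to 2.65 CPM with control siRNA. HBB, a marker of red blood cells, ran from 1.01 to 1.34 CPM with eIF3e siRNA and was at 37.7, 0.354 and 0.917 CPM with control siRNA, high in 1 control library. DCN footprints also rose (1.05 ± 0.17, edgeR adjusted p = 3.8e-05). DCN thus rose as most of the factors did, while the epithelial markers moved in both directions. The part of these markers in the results was not tested.

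The 40 factors together took 0.146, 0.145 and 0.150% of total RNA counts in the eIF3e siRNA libraries and 0.0737, 0.101 and 0.0965% in the control libraries. In footprints they took 0.257, 0.275 and 0.267% in the eIF3e siRNA libraries and 0.177, 0.200 and 0.246% in the control libraries. The eIF3e siRNA libraries were therefore above every control library in both assays, with control library 3 of the footprints nearest to them. From bulk RNA, a larger share of cells expressing a gene and more of its RNA per cell cannot be told apart.

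In total RNA the ribosome biogenesis factors were mostly higher after eIF3e siRNA. Of the 40, 23 rose, 2 fell and 15 did not pass the test (edgeR quasi-likelihood test over all 11719 genes tested, Benjamini-Hochberg adjusted p under 0.05). Over all genes tested, 18.8% rose and 18.7% fell, against 57.5% and 5% of the factors. The log2 fold change of eIF3e siRNA over control had a median of 0.60 over the factors and 0.02 over all genes, and it was above 0 for 37 of the 40. All 3 eIF3e siRNA libraries were above all 3 control libraries for 29 factors and below them for 2, where 25.4 and 24.2% of all genes did so. Changes below are log2 fold changes of eIF3e siRNA over control ± SE, with n = 3 libraries per group. Of the 23 increases, 19 were called under every alternative setting or left-out library that tested them (13, or 12 for RRP9, which was not tested with a minimum count of 50).

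The scaling of total RNA moved these numbers, and the make-up of the libraries differed between the siRNAs. RPPH1, a non-coding RNA of ribonuclease P, held 6.95, 7.10 and 6.37% of counts in the eIF3e siRNA libraries and 12.3, 9.93 and 9.33% in the control libraries. Its part in the result was not tested. Scaling by library totals alone raised the median of all genes by 0.16 and that of the factors to 0.76. Under that scaling 28 factors rose and 1 fell, beside 2929 genes that rose and 1217 that fell over the whole table, against 2202 and 2197 with TMM factors. The shift of the factors' median was thus that of all genes.

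**Figure D1:**
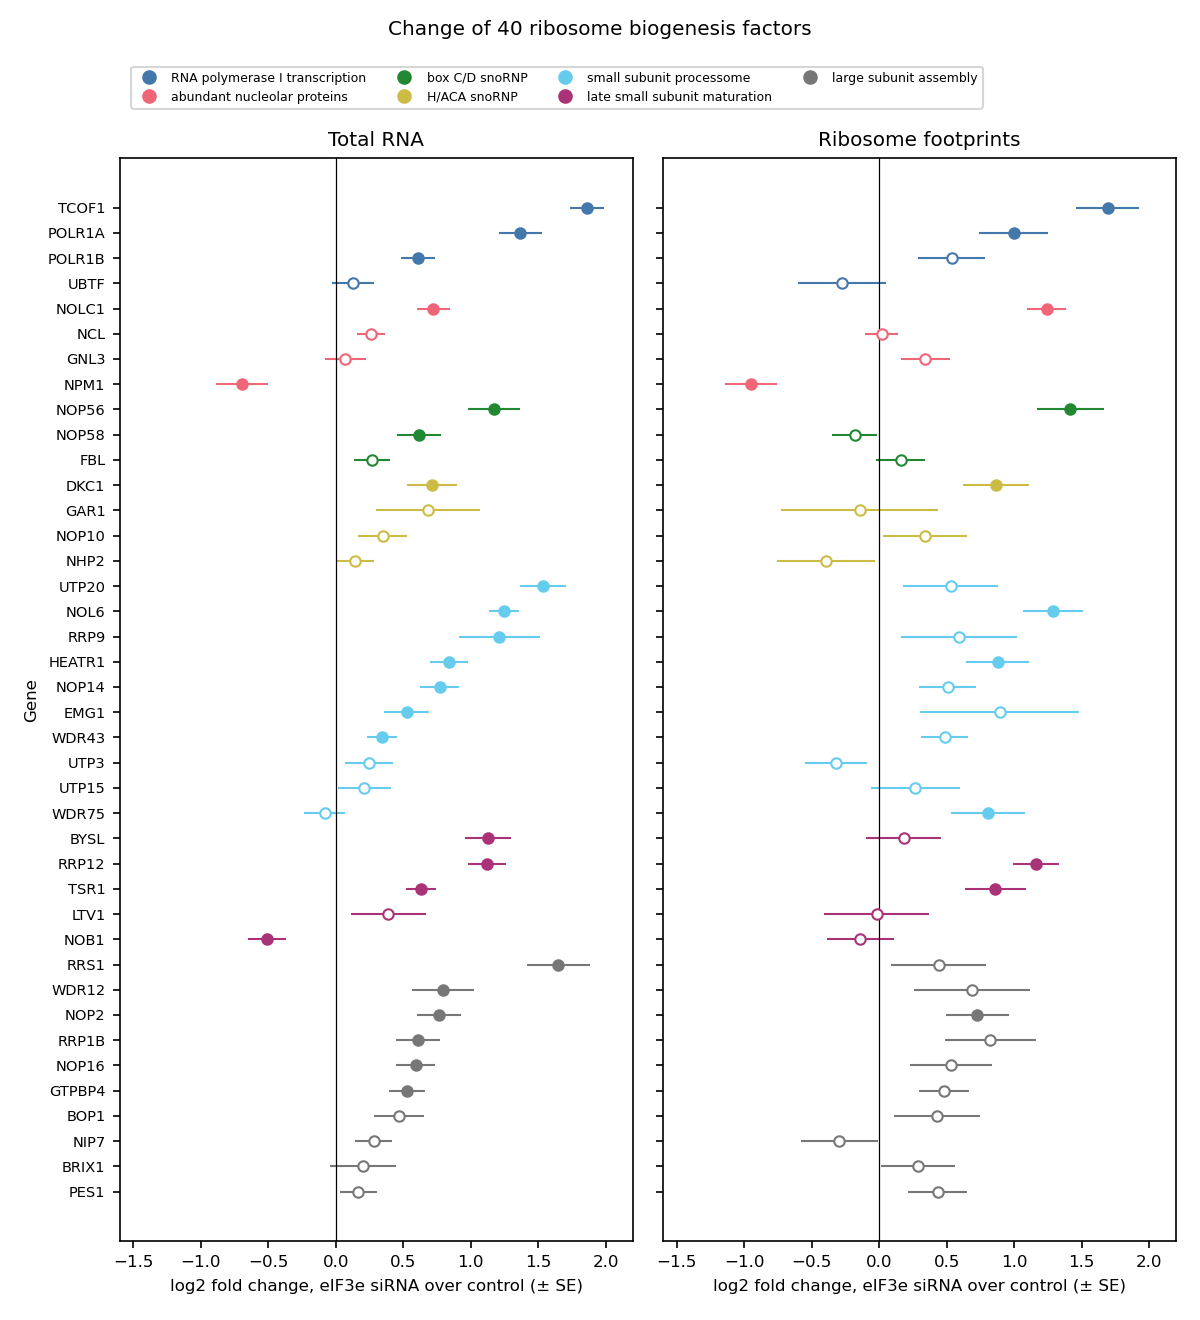
Change of each of the 40 factors in total RNA (left) and ribosome footprints (right), as the log2 fold change of eIF3e siRNA over control with its SE (n = 3 libraries per group), coloured by role. Filled points passed the test (edgeR adjusted p under 0.05): 23 rose and 2 fell in total RNA, 11 rose and 1 fell in footprints.

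In footprints the same direction prevailed with fewer calls. Of the 40 factors 11 rose, 1 fell and 28 did not pass the test, with a median change of 0.48 against −0.01 over the 9228 genes tested. Over all genes 10.0% rose and 8.46% fell, against 27.5% and 2.5% of the factors. The change was above 0 for 31 of the 40. The groups did not overlap for 14 factors on the higher side and 1 on the lower, against 17.1 and 16.5% of all genes. The spread between replicates was wider here, with a biological coefficient of variation of 0.245 in footprints and 0.155 in total RNA. Without control library 2 only 6 factors rose, and over all genes 668 rose in place of 926. Of the 11 increases 5 (TCOF1, NOLC1, NOP56, NOL6 and RRP12) were called under all 12 alternatives. The decrease, that of NPM1, was called under all 12.

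**Figure D2:**
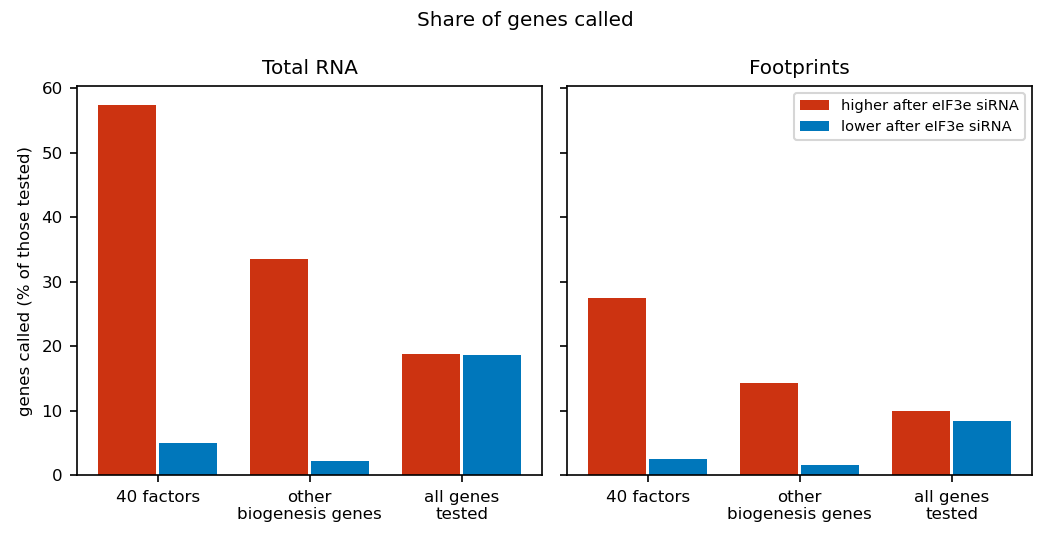
Share of genes called higher (red) or lower (blue) after eIF3e siRNA among the 40 factors, 138 other ribosome biogenesis genes and all genes tested, in total RNA (left) and footprints (right), as percent of the genes tested in each set. Higher calls made up 57.5% of the factors in total RNA and 27.5% in footprints, against 18.8 and 10.0% of all genes.

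Of the factors of RNA polymerase I transcription, TCOF1 changed most of all 40 in both assays. TCOF1 encodes treacle, a nucleolar scaffold that binds the polymerase and is mutated in Treacher Collins syndrome. Its total RNA was at 49.1, 49.7 and 49.01 CPM with eIF3e siRNA, against 13.2, 14.3 and 13.1 CPM with control siRNA (1.86 ± 0.13, edgeR adjusted p = 3.0e-08). Its footprints were at 70.8, 87.4 and 87.2 CPM with eIF3e siRNA, against 18.4, 32.9 and 24.7 CPM with control siRNA (1.69 ± 0.24, edgeR adjusted p = 2.6e-06). The 2 groups lay far apart in both assays, at more than 3 times the control mean in each eIF3e siRNA library of total RNA.

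POLR1A, the largest subunit of the polymerase, was at 73.5, 70.7 and 65.4 CPM with eIF3e siRNA, against 21.8, 23.9 and 35.8 CPM with control siRNA in total RNA (1.37 ± 0.16, edgeR adjusted p = 2.2e-05). POLR1B, the second largest subunit, was at 40.8, 36.1 and 42.7 CPM with eIF3e siRNA, against 24.3, 25.8 and 28.2 CPM with control siRNA (0.61 ± 0.13, edgeR adjusted p = 0.0012). Both were higher in every eIF3e siRNA library. POLR1A footprints were at 60.6, 57.02 and 59.7 CPM with eIF3e siRNA, against 25.8, 20.5 and 43.02 CPM with control siRNA (1.00 ± 0.25, edgeR adjusted p = 0.0050). That call was lost without control library 2 (edgeR adjusted p = 0.065), and control library 3 was nearest to the eIF3e siRNA libraries. POLR1B footprints overlapped between groups and missed the threshold (0.54 ± 0.25, edgeR adjusted p = 0.14), though they passed it without control library 3 (edgeR adjusted p = 0.031). UBTF, the factor that holds ribosomal DNA in an open state, passed in neither assay, with 0.13 ± 0.15 in total RNA and −0.27 ± 0.33 in footprints.

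The abundant nucleolar proteins went in different directions. NOLC1, also called Nopp140, which binds snoRNPs on their way through the nucleolus and is a relative of treacle, rose and NPM1, the histone and ribosome chaperone nucleophosmin, fell. NOLC1 total RNA was at 71.1, 75.4 and 64.2 CPM with eIF3e siRNA, against 35.2, 47.2 and 44.96 CPM with control siRNA (0.72 ± 0.12, edgeR adjusted p = 0.00026). Its footprints were at 205, 226 and 210.3 CPM with eIF3e siRNA, against 81.8, 96.3 and 93.5 CPM with control siRNA (1.24 ± 0.15, edgeR adjusted p = 1.8e-07). In footprints the lowest eIF3e siRNA library was over 2 times the highest control library.

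NPM1 total RNA was at 50.4, 65.1 and 39.9 CPM with eIF3e siRNA, against 82.9, 98.9 and 69.5 CPM with control siRNA, and it fell by 0.70 ± 0.19 (log2, edgeR adjusted p = 0.020). NPM1 footprints were at 45.5, 66.2 and 48.7 CPM with eIF3e siRNA, against 116, 97.2 and 95.4 CPM with control siRNA, and they fell by 0.95 ± 0.19 (edgeR adjusted p = 0.00047). The groups did not overlap in either assay. The total RNA table also lists 45 NPM1 pseudogene rows with 475 counts in all beside the 1946 of NPM1, so reads may be split between them. The total RNA call was lost without eIF3e siRNA library 1 (edgeR adjusted p = 0.074), control library 1 (0.11) or control library 2 (0.054).

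NCL, or nucleolin, and GNL3, the nucleolar GTPase nucleostemin, did not pass in either assay. NCL had total RNA of 102, 112 and 105 CPM with eIF3e siRNA, against 80.7, 91.3 and 93.6 CPM with control siRNA (0.26 ± 0.10, edgeR adjusted p = 0.057), so its groups did not overlap although the adjusted p missed the threshold. The NCL call was made with total-count scaling (edgeR adjusted p = 0.016), with a minimum count of 50 (0.033) and with only the genes of the footprint table (0.047). Its footprints were at 458, 482 and 498 CPM with eIF3e siRNA, against 429, 461 and 531 CPM with control siRNA, and overlapped (0.02 ± 0.12, edgeR adjusted p = 0.94). GNL3 was at 0.07 ± 0.15 in total RNA and 0.34 ± 0.18 in footprints. Its gene overlaps GLT8D1 on the other strand, and the strand setting of the counting is not given in the sources used here.

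**Figure D3:**
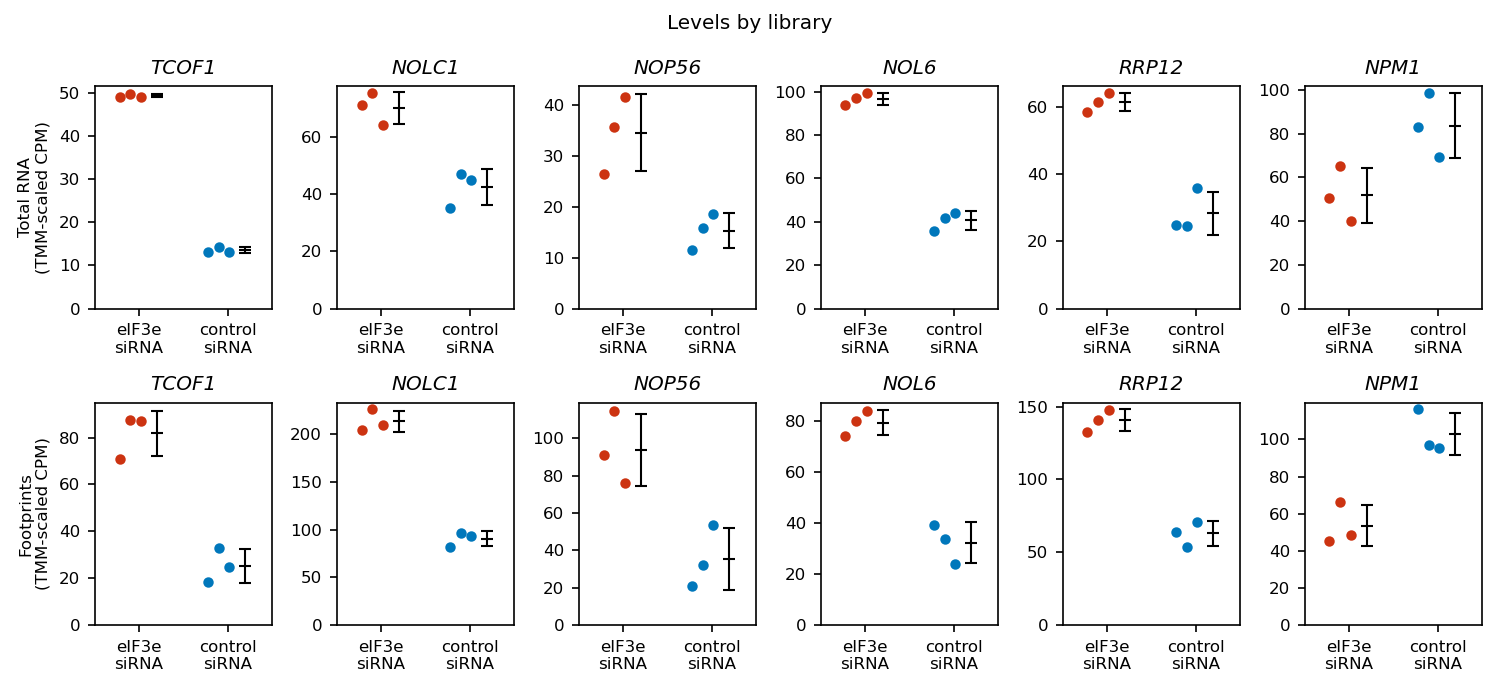
Level in each library of 6 factors in total RNA (top) and footprints (bottom), in CPM with TMM scaling, with the eIF3e siRNA libraries in red and the control libraries in blue. Black marks give the mean ± SD of the 3 libraries. In all 12 panels the groups do not overlap, and only NPM1 is lower after eIF3e siRNA. The 6 are the factors whose footprint calls (5 higher, 1 lower) held under all 12 alternatives, so they do not stand for all 40. Of the 40, 14 were separated on the higher side in footprints and 1 on the lower.

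Within the box C/D snoRNP, which methylates ribosomal RNA, the 3 core proteins measured did not move together. NOP56 rose in both assays, while FBL, the methyltransferase fibrillarin, passed in neither. NOP56 total RNA was at 26.5, 35.7 and 41.7 CPM with eIF3e siRNA, against 11.6, 15.9 and 18.6 CPM with control siRNA (1.17 ± 0.20, edgeR adjusted p = 0.00046). NOP56 footprints were at 91.3, 114 and 75.9 CPM with eIF3e siRNA, against 20.9, 31.9 and 53.4 CPM with control siRNA (1.42 ± 0.25, edgeR adjusted p = 8.4e-05). Every eIF3e siRNA library lay above every control library in both.

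NOP58, the partner and paralog of NOP56 in the particle, had total RNA of 46.7, 38.3 and 44.96 CPM with eIF3e siRNA, against 20.2, 32.9 and 31.2 CPM with control siRNA, and rose (0.62 ± 0.16, edgeR adjusted p = 0.0084). Its footprints did not pass the test, at 99.3, 95.8 and 97.96 CPM with eIF3e siRNA, against 106, 94.5 and 132 CPM with control siRNA (−0.18 ± 0.17, edgeR adjusted p = 0.52). The difference between the assays, tested as an interaction, did not pass for NOP58 either (−0.80 ± 0.24, edgeR adjusted p = 0.16). FBL total RNA stood at 30.7, 28.98 and 35.04 CPM after eIF3e siRNA and 26.6, 28.1 and 23.9 CPM in control (0.27 ± 0.13, edgeR adjusted p = 0.12), and its footprint change was 0.16 ± 0.18. The ratio of NOP56 to NOP58 footprint counts shows the split within each library. It was 0.92, 1.2 and 0.77 in the eIF3e siRNA libraries and 0.2, 0.34 and 0.4 in the control libraries, with no overlap between groups. For total RNA counts this ratio was 0.57, 0.93 and 0.93 in the eIF3e siRNA libraries and 0.57, 0.48 and 0.6 in the control libraries, where the groups overlapped. The ratio of NOP56 to FBL footprint counts was 1.2, 1.3 and 0.79 in the eIF3e siRNA libraries and 0.31, 0.44 and 0.59 in the control libraries, again without overlap, and that of NOP58 to FBL was 1.3, 1.1 and 1 in the eIF3e siRNA libraries and 1.6, 1.3 and 1.5 in the control libraries, all lower after eIF3e siRNA. NOP58 to FBL in total RNA was 1.5, 1.3 and 1.3 in the eIF3e siRNA libraries and 0.76, 1.2 and 1.3 in the control libraries, with overlap and the higher mean after eIF3e siRNA. With 3 libraries against 3 an exact permutation test cannot go below 0.10, and these pairs were picked after their values were seen, so no test is given.

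In the H/ACA snoRNP, which converts uridine to pseudouridine and also holds telomerase RNA, only DKC1 passed. DKC1, the pseudouridine synthase dyskerin, was at 25.2, 28.98 and 28.8 CPM with eIF3e siRNA, against 11.1, 19.8 and 19.3 CPM with control siRNA in total RNA (0.71 ± 0.18, edgeR adjusted p = 0.0067). Its footprints were at 76.6, 76.4 and 63.9 CPM with eIF3e siRNA, against 26.2, 34.7 and 58.8 CPM with control siRNA (0.87 ± 0.24, edgeR adjusted p = 0.010). Both assays were higher in every eIF3e siRNA library, but the footprint call was lost without control library 1 (edgeR adjusted p = 0.085) or control library 2 (0.075).

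The 3 small partners of dyskerin did not pass in either assay. GAR1, at 0.68 ± 0.39 in total RNA and −0.14 ± 0.58 in footprints, had 74 counts over the 6 total RNA libraries and 142 over the 6 footprint libraries. NHP2 was at 0.14 ± 0.14 in total RNA and −0.39 ± 0.36 in footprints, and its gene overlaps RMND5B on the other strand. NOP10 was at 0.35 ± 0.18 and 0.34 ± 0.31. With total-count scaling NOP10 was called in total RNA (edgeR adjusted p = 0.048), and so was FBL (0.036).

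Of the 10 members of the small subunit processome 7 rose in total RNA and none fell, where 18.8% of all genes rose and 18.7% fell. NOL6, a scaffold of the UTP-C part of the particle, was at 93.7, 96.98 and 99.2 CPM with eIF3e siRNA, against 35.9, 41.9 and 44.04 CPM with control siRNA in total RNA (1.25 ± 0.11, edgeR adjusted p = 5.3e-07). UTP20, a very long helical-repeat protein, was at 26.8, 26.1 and 29.8 CPM with eIF3e siRNA, against 7.27, 10.3 and 10.8 CPM with control siRNA (1.54 ± 0.17, edgeR adjusted p = 4.3e-06). HEATR1, the human counterpart of yeast Utp10, was at 68.2, 64.7 and 71.3 CPM with eIF3e siRNA, against 28.6, 39.97 and 45.6 CPM with control siRNA (0.84 ± 0.14, edgeR adjusted p = 0.00032). The eIF3e siRNA libraries of these 3 genes were tightly grouped and all above control. NOP14, a partner of EMG1 in the particle, was at 28.5, 29.7 and 30.6 CPM with eIF3e siRNA, against 15.2, 19.99 and 16.5 CPM with control siRNA (0.77 ± 0.14, edgeR adjusted p = 0.00055).

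The further increases in total RNA were RRP9, the U3 snoRNP protein (1.21 ± 0.30), EMG1, a pseudouridine methyltransferase (0.53 ± 0.17), and WDR43, a propeller protein of the UTP-A complex (0.34 ± 0.11). EMG1 and WDR43 were the less stable calls. EMG1 overlaps LPCAT3, which had 1703 counts beside its 465, and lost its call without eIF3e siRNA library 1 (edgeR adjusted p = 0.12), control library 1 (0.054) or control library 2 (0.062) and in DESeq2 (0.098). WDR43 lost its call without eIF3e siRNA library 2 (edgeR adjusted p = 0.079) or 3 (0.080), without control library 1 (0.12) or 2 (0.083), with no filter (0.055) and in DESeq2 (0.093). UTP3 (0.25 ± 0.18), UTP15 (0.21 ± 0.20) and WDR75 (−0.08 ± 0.15) did not pass in total RNA.

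Footprints of this particle rose for 3 of the 10 members and fell for none, where 10.0% of all genes rose and 8.46% fell. NOL6 was at 74.02, 80.05 and 83.6 CPM with eIF3e siRNA, against 39.3, 33.8 and 23.7 CPM with control siRNA (1.29 ± 0.22, edgeR adjusted p = 6.4e-05). HEATR1 was at 74.98, 125 and 107 CPM with eIF3e siRNA, against 37.2, 46.1 and 84.6 CPM with control siRNA (0.88 ± 0.23, edgeR adjusted p = 0.0069). WDR75 was at 59.9, 42.04 and 43.9 CPM with eIF3e siRNA, against 38.9, 25.1 and 18.8 CPM with control siRNA (0.81 ± 0.27, edgeR adjusted p = 0.036). NOL6 was separated by a wide margin, HEATR1 overlapped through control library 3, and WDR75 was separated by a small margin. The HEATR1 call was lost without eIF3e siRNA library 2, control library 1 or control library 2 (edgeR adjusted p = 0.073, 0.072 and 0.072). That of WDR75 was lost without eIF3e siRNA library 1 (edgeR adjusted p = 0.18) or 3 (0.057) and without control library 2 (0.15) or 3 (0.15).

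Among the other members of the processome the footprint changes were 0.53 ± 0.35 for UTP20, 0.59 ± 0.43 for RRP9, 0.51 ± 0.21 for NOP14, 0.89 ± 0.59 for EMG1 and 0.48 ± 0.18 for WDR43, none of which passed. WDR43 came closest (edgeR adjusted p = 0.054) and was called with a minimum count of 50 (0.043) or without control library 3 (0.010). NOP14 was called without control library 3 (edgeR adjusted p = 0.040). UTP15 was at 0.27 ± 0.33 and UTP3 at −0.32 ± 0.23. UTP20 footprints were at 26.3, 27.05 and 30.2 CPM with eIF3e siRNA, against 18.8, 9.13 and 30.2 CPM with control siRNA, so the groups overlapped in footprints, with control library 3 as high as the highest eIF3e siRNA library. HEATR1 overlaps LGALS8 and NOP14 overlaps NOP14-AS1 on the other strand, with 705 and 402 total RNA counts beside their own 1504 and 666.

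Late maturation factors of the small subunit act on the particle after it leaves the processome. RRP12, an export factor with helical repeats, was at 58.6, 61.5 and 64.00 CPM with eIF3e siRNA, against 24.8, 24.6 and 35.8 CPM with control siRNA in total RNA (1.12 ± 0.14, edgeR adjusted p = 1.5e-05). RRP12 footprints were at 133, 141 and 148 CPM with eIF3e siRNA, against 64.2, 53.8 and 70.7 CPM with control siRNA (1.16 ± 0.17, edgeR adjusted p = 6.2e-06). It was higher in all eIF3e siRNA libraries of both assays, by similar amounts. TSR1, a GTPase-like protein of the pre-40S particle, was at 52.2, 51.3 and 54.3 CPM with eIF3e siRNA, against 36.4, 33.1 and 32.3 CPM with control siRNA in total RNA (0.63 ± 0.11, edgeR adjusted p = 0.00033). Its footprints were at 88.8, 54.8 and 64.5 CPM with eIF3e siRNA, against 38.05, 35.1 and 41.5 CPM with control siRNA (0.86 ± 0.22, edgeR adjusted p = 0.0059), a call lost without eIF3e siRNA library 1 (edgeR adjusted p = 0.078). That library was the highest of the 3.

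BYSL, or bystin, rose in total RNA only by the test, with 24.1, 28.5 and 23.1 CPM with eIF3e siRNA, against 9.09, 12.7 and 12.6 CPM with control siRNA (1.13 ± 0.17, edgeR adjusted p = 8.3e-05). BYSL footprints were at 25.96, 57.4 and 38.5 CPM with eIF3e siRNA, against 41.3, 38.8 and 26.7 CPM with control siRNA, and overlapped widely (0.18 ± 0.28, edgeR adjusted p = 0.73). Its gene overlaps MED20 on the other strand, with 270 counts beside 519. NOB1, the endonuclease that makes the final cut of 18S ribosomal RNA, was 1 of the 2 factors that fell in total RNA. NOB1 stood at 25.4, 19.8 and 19.04 CPM with eIF3e siRNA, against 32.3, 30.2 and 29.1 CPM with control siRNA, and fell by 0.51 ± 0.14 (edgeR adjusted p = 0.010), a call lost with total-count scaling (0.10) or without eIF3e siRNA library 3 (0.051). NOB1 footprints were at −0.14 ± 0.25 with overlapping groups. LTV1, which must leave the pre-40S particle before it matures, did not pass (0.39 ± 0.28 in total RNA and −0.02 ± 0.39 in footprints).

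Large subunit assembly factors rose in total RNA for 6 of 10 members, beside 18.8% of all genes. In footprints 1 of 10 rose, which is the share of all genes (10.0%). RRS1, which brings the 5S particle into the large subunit, was at 11.2, 18.7 and 17.8 CPM with eIF3e siRNA, against 5.45, 5.13 and 4.59 CPM with control siRNA in total RNA (1.65 ± 0.24, edgeR adjusted p = 5.1e-05). NOP2, a cytosine methyltransferase of 28S ribosomal RNA, was at 26.98, 30.8 and 27.1 CPM with eIF3e siRNA, against 12.9, 16.6 and 20.4 CPM with control siRNA (0.76 ± 0.16, edgeR adjusted p = 0.0016). NOP16, a nucleolar assembly factor, was at 22.6, 26.8 and 27.9 CPM with eIF3e siRNA, against 16.4, 16.8 and 18.1 CPM with control siRNA (0.59 ± 0.14, edgeR adjusted p = 0.0041). All 3 were separated from control, RRS1 most widely. GTPBP4, a GTPase of early large subunit particles, was at 34.7, 37.7 and 40.7 CPM with eIF3e siRNA, against 22.5, 29.7 and 25.9 CPM with control siRNA (0.53 ± 0.14, edgeR adjusted p = 0.0058).

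WDR12 (0.79 ± 0.23) and RRP1B (0.61 ± 0.17) also rose in total RNA. The WDR12 call was lost without eIF3e siRNA library 3 (edgeR adjusted p = 0.062) or control library 1 (0.050, just above the threshold), and that of RRP1B without control library 1 (0.052). WDR12, PES1 and BOP1 form the PeBoW complex, which is needed for processing of 28S and 5.8S ribosomal RNA. PES1 (0.16 ± 0.14) and BOP1 (0.47 ± 0.18) did not pass with the settings used. BOP1, which overlaps SCX, was close (edgeR adjusted p = 0.057) and was called with total-count scaling (0.018), with a minimum count of 50 (0.039), with only the genes of the footprint table (0.039) and without eIF3e siRNA library 2 (0.023). NIP7 (0.28 ± 0.14) was called with total-count scaling alone (edgeR adjusted p = 0.035), and BRIX1 (0.20 ± 0.24) did not pass.

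In footprints of the large subunit factors, NOP2 was at 53.5, 83.7 and 68.99 CPM with eIF3e siRNA, against 42.96, 30.1 and 51.4 CPM with control siRNA (0.73 ± 0.23, edgeR adjusted p = 0.025). The groups did not overlap, but the gap was small and the call was lost without eIF3e siRNA library 2 (edgeR adjusted p = 0.17) or 3 (0.071) and without control library 1 (0.053) or 2 (0.19). RRP1B (0.82 ± 0.34) and GTPBP4 (0.48 ± 0.19) did not overlap either and did not pass (edgeR adjusted p = 0.089 and 0.073), though GTPBP4 did without control library 1 (0.039). RRS1 footprints were at 25.6, 20.1 and 21.8 CPM with eIF3e siRNA, against 11.5, 18.3 and 20.3 CPM with control siRNA (0.44 ± 0.35, edgeR adjusted p = 0.44). WDR12 stood at 0.69 ± 0.43, PES1 at 0.43 ± 0.22, BOP1 at 0.43 ± 0.32, NOP16 at 0.53 ± 0.30, BRIX1 at 0.29 ± 0.28 and NIP7 at −0.30 ± 0.29. Of these WDR12 was called without control library 3 (1.31, edgeR adjusted p = 0.049).

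Footprints per mRNA were tested as an assay-by-siRNA interaction across 12 libraries, and they changed for none of the 40 factors (edgeR, 0 rose and 0 fell), and DESeq2 called none either. Of the 9055 genes tested, 0.144% rose and 0.166% fell. At an unadjusted p under 0.05 there were 6 factors, against 1091 of the 9055 genes. These were NOP58 (−0.80 ± 0.24), RRS1 (−1.20 ± 0.42), BYSL (−0.95 ± 0.37) and UTP20 (−1.01 ± 0.41) on the lower side and NOLC1 (0.52 ± 0.19) and WDR75 (0.89 ± 0.34) on the higher, with edgeR adjusted p from 0.16 to 0.32. The median over the factors was −0.054, and it was −0.27 with total-count scaling, where all genes moved by −0.21. A value that misses the threshold does not show that footprints per mRNA were equal.

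Across the 40 factors the change in footprints went with the change in total RNA (Pearson's r = 0.67, Spearman's rho = 0.65), as it did across 9055 genes (0.67 and 0.64). These are descriptions across genes of shared libraries and carry no test. Both changes were above 0 for 30 factors and for 3281 of the 9055 genes. In both assays 10 factors were called higher (TCOF1, POLR1A, NOLC1, NOP56, DKC1, NOL6, HEATR1, RRP12, TSR1 and NOP2) and 1 lower (NPM1), beside 713 and 604 of 9055 genes. WDR75 was called in footprints alone.

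**Figure D4:**
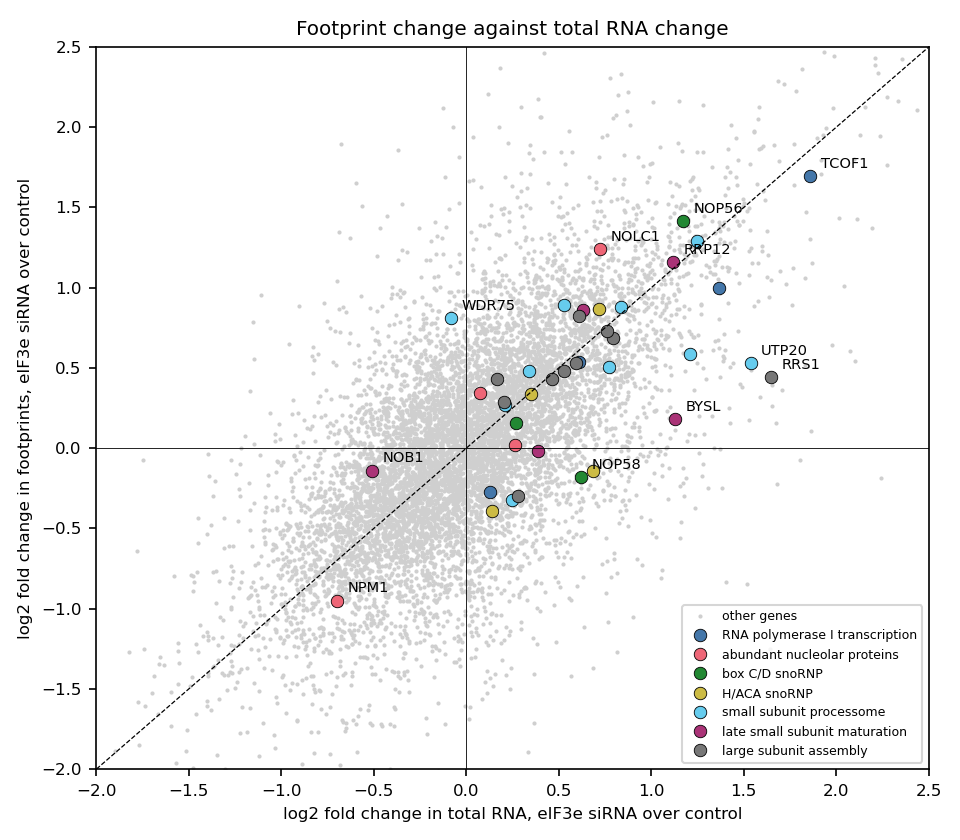
Change in footprints against change in total RNA for the 40 factors (coloured by role) and all genes tested in both assays (grey), as log2 fold changes of eIF3e siRNA over control; the dashed line marks equal change, and genes outside the axes are not drawn. TCOF1 lies farthest up and right, NPM1 farthest down, and RRS1, UTP20, BYSL and NOP58 lie below the line without passing the interaction test.

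Other genes of the pathway rose in total RNA more often than they fell. A list of 138 further ribosome biogenesis genes was drawn up from general knowledge of the pathway, of which 134 could be tested in total RNA and 133 in footprints. Earlier results of these data were known when the list was made, so it is no independent check. In total RNA 45 rose (33.6%) and 3 fell (2.24%), with a median of 0.35, beside the 18.8 and 18.7% of all genes. In footprints 19 rose (14.3%) and 2 fell (1.5%), with a median of 0.28, beside 10.0 and 8.46% of all genes, so the share that rose was near that of all genes. The count that rose in footprints was 11 without control library 2, where over all genes 668 rose in place of 926. In footprints per mRNA none was called by edgeR (8 at an unadjusted p under 0.05) and 1 rose in DESeq2.

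PDCD11, the human counterpart of yeast Rrp5, which joins both subunits' assembly, had total RNA of 106, 97.9 and 108 CPM with eIF3e siRNA, against 38.4, 39.3 and 43.8 CPM with control siRNA (1.36 ± 0.11, edgeR adjusted p = 1.6e-07). MRTO4, which holds the place of the stalk protein on the large subunit, was at 32.9, 35.2 and 35.04 CPM with eIF3e siRNA, against 10.2, 14.1 and 12.8 CPM with control siRNA (1.46 ± 0.15, edgeR adjusted p = 2.2e-06). MDN1, the giant ATPase midasin, was at 96.9, 97.7 and 108 CPM with eIF3e siRNA, against 37.5, 42.6 and 56.2 CPM with control siRNA (1.15 ± 0.13, edgeR adjusted p = 8.2e-06), and URB1, a large nucleolar scaffold, rose by 0.91 ± 0.11 (edgeR adjusted p = 9.0e-06). All 4 were clear of control in each library. In footprints the smallest adjusted p belonged to URB1 (1.07 ± 0.16, edgeR adjusted p = 9.5e-06), MRTO4 (1.64 ± 0.25, edgeR adjusted p = 1.2e-05), NOC2L (1.26 ± 0.22, edgeR adjusted p = 8.2e-05) and RRP1 (1.38 ± 0.25, edgeR adjusted p = 0.00012). URB1 footprints were at 140.0, 148 and 149 CPM with eIF3e siRNA, against 65.1, 73.01 and 69.7 CPM with control siRNA.

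The decreases of that list in total RNA were RSL24D1, a placeholder on the pre-60S particle that fell by 1.01 ± 0.16 (edgeR adjusted p = 0.00015), GLTSCR2, now named NOP53 (fell by 0.73 ± 0.13, edgeR adjusted p = 0.00049), and NSA2 (fell by 0.89 ± 0.26, edgeR adjusted p = 0.013). In footprints they were GLTSCR2 (fell by 0.81 ± 0.20, edgeR adjusted p = 0.0038) and NMD3, the export adaptor of the large subunit (fell by 0.85 ± 0.27, edgeR adjusted p = 0.026). GLTSCR2 footprints were at 49.03, 41.7 and 47.8 CPM with eIF3e siRNA, against 94.9, 73.9 and 73.7 CPM with control siRNA. GLTSCR2 was thus lower in both assays, as NPM1 was among the 40. Of the smaller groups in the list, large subunit assembly and export genes rose most often in total RNA (24 of 56 tested, 42.9%), beside 18.8% of all genes. The others were RNA polymerase I genes (4 of 14, 28.6%), exosome and exonuclease genes (4 of 14, 28.6%) and small subunit genes (13 of 50, 26%). Their shares were nearer to that of all genes, and the groups of 14 are small.

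Because so many factors moved together, their promoters were searched for the E-box, a palindromic site of basic helix-loop-helix factors. RefSeq (GRCh38.p14) gave a window of 250 bases before to 50 bases after 1 transcript start for 33 of the 40 factors. The letters CACGTG occurred in 11 of these (33.3%), in 10.5% of the 7192 windows of genes tested in both assays and in 7.43% of all 27305 windows. They occurred in 30.3% of the 119 windows of the further pathway genes, so the motif was not particular to the 40 factors. The motif reads the same on both strands. Of the 11 factors with the motif 7 rose in total RNA and none fell, with a median of 0.76, where 57.5% of all 40 factors rose. Of the 22 without the motif 10 rose and 2 fell, with a median of 0.40. Of the 7 factors that lack a window (TCOF1, NOLC1, NOP58, RRP12, BOP1, RRS1 and RRP1B), 6 rose, with a median of 0.72. In footprints 2 of the 11 with the motif rose, as did 6 of the 22 without it and 3 of the 7 that lack a window. There 27.5% of all 40 factors and 10.0% of all genes rose. The footprint medians were 0.48 with the motif, 0.41 without it and 0.82 for the factors that lack a window. The sites of the 7 carriers that rose are shown, as the letters behind that count, with the E-box in capitals and up to 10 bases on each side, 5′ to 3′ on the strand of the gene.
NOL6, chr9:33473896-33473921, minus strand: catttccgccCACGTGggaagctatg
UTP20, chr12:101280085-101280110, plus strand: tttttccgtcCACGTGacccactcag
RRP9, chr3:51941894-51941919, minus strand: gttcagctgcCACGTGagttctgcgg
NOP14, chr4:2963376-2963401, minus strand: cgcggcccggCACGTGtcttagggta
WDR43, chr2:28894660-28894685, plus strand: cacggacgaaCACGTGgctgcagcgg
BYSL, chr6:41921517-41921542, plus strand: cttcagtcccCACGTGcgatccttcc
NOP2, chr12:6568242-6568266, minus strand: gtccggattgCACGTGgagggccgc

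Positions count from the start of the transcript that the window was drawn for. The E-box began 10 bases before the start in UTP20 and 5 before it in RRP9, and at base 4 of the transcript in WDR43, 14 in NOL6, 16 in NOP14, 29 in BYSL and 36 in NOP2. The other carriers, FBL, NOP10 (with a pair of sites, 170 and 11 bases before the start), LTV1 and PES1, did not pass the test in total RNA. Other motifs were searched on both strands. CCGGAAG, the core of ETS sites, was in 39.4% of the factors' windows, 40.3% of those of the further pathway genes and 20.8% of those of tested genes. In the same order CACGCG was in 36.4, 27.7 and 19.2%, and GGGCGG, the GC box, in 78.8, 60.5 and 72.8%. The NRF1 motif was in 6.06, 5.04 and 2.46%. A match describes letters only, and no factor binding was measured. Changes of other genes with an E-box were not counted, and a link of the E-box to the changes was not tested.

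The factors lie on 18 chromosomes, for example TCOF1 at chr5:150357697-150400293, NOLC1 at chr10:102152389-102163870, NOP56 at chr20:2652632-2658393 and NPM1 at chr5:171387116-171410900 (GRCh38.p14, all protein-coding). Of the 40, 8 hold snoRNA genes within their bounds (NCL, GNL3, NOP56, NOP58, DKC1, WDR43, UTP20 and TSR1), and 7 are overlapped by a gene other than a snoRNA gene that had over 10% of their own total RNA counts. Change in total RNA and gene span were weakly related across the factors (Spearman's rho = 0.24), where genes tested in both assays had −0.13. For the change in footprints rho was 0.36 across the factors and −0.05 across those genes.

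Footprints of the factors on ribosomes bound by eIF3B or eIF3E were set against the total footprint library. These are single libraries without replicates or siRNA labels, so ratios to the total footprint library come with 95% intervals that cover counting error only, and no test is possible. Of the 40 factors 29 had at least 100 counts in 1 of the 3 libraries. With TMM scaling, 5 of the 29 were over 1.5-fold above total in the eIF3B-bound library and 10 over 1.5-fold below, where 17.2 and 18.8% of 3575 genes were. The share of the factors above total for eIF3B was thus about that of all genes. In the eIF3E-bound library 0 of the 29 were above and 8 below, where 11.2 and 14.5% of genes were. Among the factors short of 100 counts, NIP7 and RRS1 lay past 1.5-fold above total for eIF3E and NPM1 past 1.5-fold below. The median log2 ratio of the factors was −0.17 and −0.14, against −0.01 and 0.00 over all 3575 genes.

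UTP15, a UTP-A protein, had 115 counts in the eIF3B-bound, 35 in the eIF3E-bound and 49 in the total library, a log2 ratio of 0.98 (0.49 to 1.49) for eIF3B and −0.92 (−1.59 to −0.27) for eIF3E. NOL6 had 278 counts in the eIF3B-bound, 246 in the eIF3E-bound and 136 in the total library, with 0.78 (0.48 to 1.09) and 0.42 (0.11 to 0.73). NOP56 had 223 counts in the eIF3B-bound, 123 in the eIF3E-bound and 121 in the total library, with 0.63 (0.31 to 0.96) and −0.41 (−0.79 to −0.04). UTP15 and NOP56 thus lay on opposite sides of the total library in the 2 bound fractions, with intervals that exclude 0. RRP12 (0.73 (0.37 to 1.09)) and NOP2 (0.72 (0.31 to 1.14)) were the remaining members past 1.5-fold above total for eIF3B. UTP15 reached the minimum count for these single libraries in the eIF3B-bound library alone. NOP2 reached it in the bound libraries (147 and 146 counts) but not in the total library (75). Both were thus admitted by the counts that make their eIF3B ratios high.

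At the other end, UTP3 had 28 counts in the eIF3B-bound, 86 in the eIF3E-bound and 113 in the total library, with −2.26 (−2.92 to −1.66) for eIF3B and −0.83 (−1.25 to −0.41) for eIF3E. GNL3 had 101 counts in the eIF3B-bound, 187 in the eIF3E-bound and 221 in the total library, with −1.38 (−1.73 to −1.03) and −0.68 (−0.97 to −0.39). NOP58 had 114 counts in the eIF3B-bound, 97 in the eIF3E-bound and 176 in the total library, with −0.88 (−1.23 to −0.53) and −1.30 (−1.67 to −0.93). These 3, with HEATR1 (−0.93 (−1.21 to −0.67) and −0.86 (−1.11 to −0.60)), BRIX1 (−0.70 (−1.14 to −0.26) and −1.24 (−1.73 to −0.77)) and GTPBP4 (−0.61 (−0.92 to −0.29) and −0.78 (−1.10 to −0.47)), were past 1.5-fold below total in both bound libraries. DKC1, NOP16, TSR1 and RRP1B were so for eIF3B alone, and UTP15 and WDR75 for eIF3E alone. UTP3 and BRIX1 reached the minimum count for these single libraries in the total library alone. They were thus admitted by the counts that make their ratios low.

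NOLC1 and TCOF1, which rose in both assays after eIF3e siRNA, were within 1.5-fold of the total library in both bound fractions. NOLC1 had 564 counts in the eIF3B-bound, 654 in the eIF3E-bound and 488 in the total library, with −0.04 (−0.22 to 0.14) and −0.02 (−0.19 to 0.16), and TCOF1 had 0.37 (0.13 to 0.61) and 0.26 (0.02 to 0.49). NCL was at −0.53 (−0.66 to −0.39) and −0.29 (−0.42 to −0.17). NPM1, with 45 counts in the eIF3B-bound, 36 in the eIF3E-bound and 62 in the total library, fell short of 100 counts and had −0.71 (−1.30 to −0.14) and −1.22 (−1.86 to −0.61). NIP7 and RRS1, also short of 100 counts, were high for eIF3E. NIP7 had 90 counts in the eIF3E-bound and 33 in the total library (1.01 (0.42 to 1.63)). RRS1 had 94 and 44 (0.66 (0.13 to 1.21)).

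**Figure D5:**
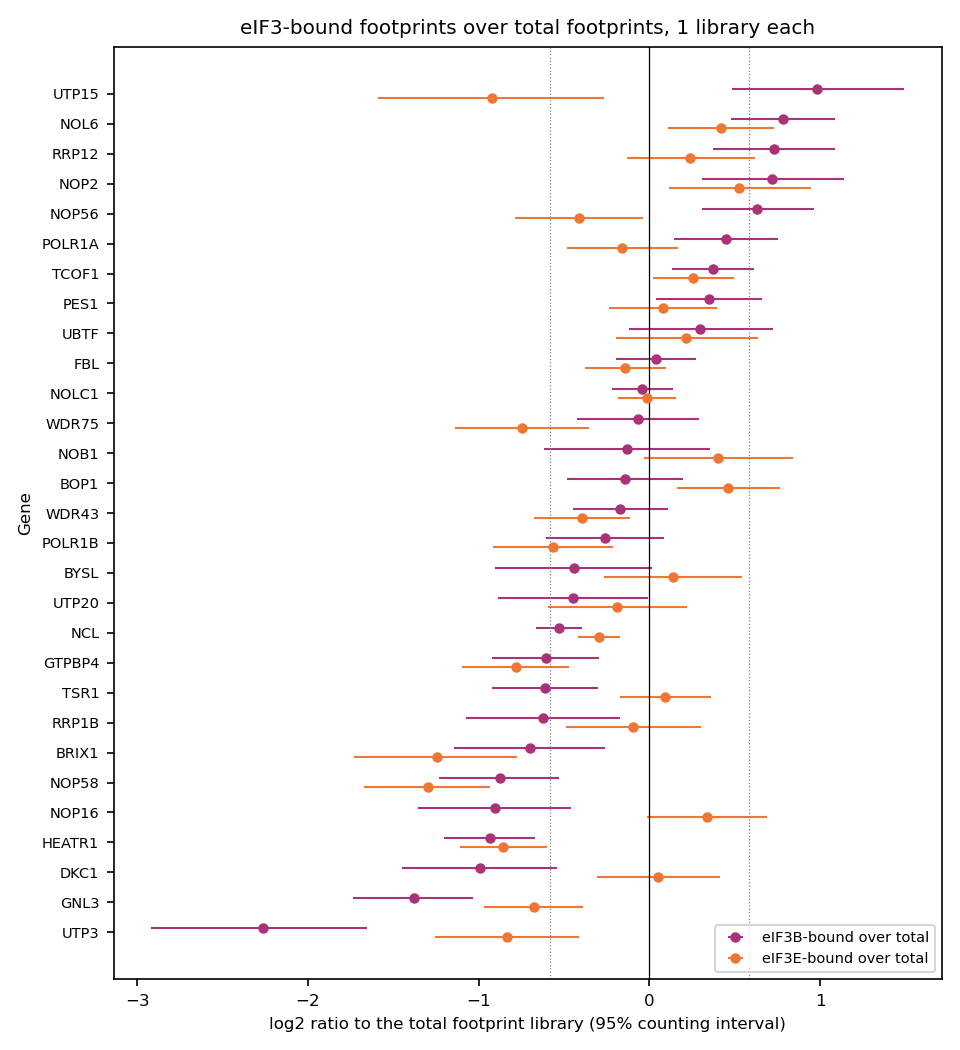
Log2 ratio of eIF3B-bound (purple) and eIF3E-bound (orange) footprints to the total footprint library for the 29 factors that reached 100 counts in any of these libraries, with exact 95% counting intervals and dotted lines at 1.5-fold. There is 1 library of each kind; UTP15, NOL6, RRP12, NOP2 and NOP56 lie past 1.5-fold above total for eIF3B and none does for eIF3E, while UTP3 is lowest for eIF3B and NOP58 for eIF3E.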

How the data were processed

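Whole-number read counts for each gene symbol, not normalized, are what the authors deposited. Per the submitters' processing notes, cutadapt 1.18, Bowtie 1.1.2, STAR 2.5 and HTSeq were used with hg38 and GRCh38; the sources used here do not give their roles, the annotation or the strand setting. Every value column was matched to its sample by title (0 unmapped).

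In R 4.3.3, edgeR 4.0.16 was run on genes kept by filterByExpr (minimum count 10), with TMM scaling per assay and robust quasi-likelihood F tests. Two-sided p-values were adjusted by Benjamini and Hochberg's method across the whole table, at 0.05. Each assay had its own fit, and footprints per mRNA came from the interaction over 12 libraries. Members and lists were chosen with earlier results of these data known. The rule for names gives per-library values for up to 4 called factors per role and assay, and names up to 4 called pathway genes with the smallest adjusted p in each direction. Some cell type markers are not reported here. Replicates differed by more than sampling noise. The total RNA and footprint fits were tested on simulated counts with known changes. Alternatives were DESeq2 1.42.0 (size factors, Wald test), total-count scaling, other filters, a replicate block and leaving out each library.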

Additional observations from a re-analysis of the deposited data

How the results depend on the processing

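Under the replicate block 23 factors rose and 2 fell in total RNA (median 0.60) and 11 rose and 1 fell in footprints (median 0.49), as without it. The samples share only a number, and a correlation over 0.1 held for 2 of 3 numbers in total RNA and none in footprints. With the treatment and number as a block no factor was called in footprints per mRNA, but 98 of all genes rose and 68 fell, against 13 and 15. DESeq2 gave 86 and 58 there, and 1 gene of the pathway list rose. For footprints per mRNA over all genes, total-count scaling gave 3 higher and 96 lower, no filter 22 higher, a minimum count of 50 gave 28 lower, and leaving out single libraries 0 to 21 higher and 0 to 29 lower. Total-count scaling left 1 factor lower in total RNA, with a median of 0.76, and moved the footprints per mRNA median to −0.27. With single libraries left out, 19 to 23 factors rose and 1 to 2 fell in total RNA (median 0.48 to 0.64), 6 to 14 rose and 1 fell in footprints (median 0.36 to 0.59), and the footprints per mRNA median ran from −0.19 to 0.02. Over all genes the same omissions gave 1663 to 2166 higher and 1722 to 2284 lower in total RNA. In footprints they gave 668 to 879 higher and 546 to 821 lower. The pathway list gave 35 to 43 higher and 2 to 5 lower genes in total RNA, and 11 to 22 and 1 to 2 in footprints. With at least 200 counts 13 factors remained in the single libraries. For eIF3B 2 were above and 3 below (median −0.065), beside 221 and 269 of 1800 genes. For eIF3E 0 were above and 2 below, beside 126 and 235 of 1800 genes. The share of factors below total for eIF3E was then near that of all genes. The causes were not tested. No value turned round for a called factor. Footprint density per codon was not computed, because protein lengths were not used here, and partner count ratios, chosen after seeing the data, stand in its place. Depth limits GAR1, LTV1 and RRP9 in total RNA, with 74, 169 and 184 counts in all, and GAR1 and EMG1 in footprints, with 142 and 146.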
